A study of Mus musculus with 250 samples.

Results

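Gene expression in the thymus was compared between mice with a breast tumor and control mice. All whole thymus arrays of the series were taken by their tissue label, which gave 50 of 250 arrays, 25 of tumor-bearing mice and 25 of control mice. The remaining 200 arrays came from 4 tissues (spleen, liver, breast and blood cells). Each tumor-bearing mouse is named in the labels with 1 control mouse of the same age and cage, so the comparison was made over 25 matched pairs.

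The mice were female and of the FVB strain. Tumor-bearing mice carried the bitransgenic MMTV-rtTA/TetO-NeuNT construct, a doxycycline-inducible Her2/Neu model in which the mouse mammary tumor virus promoter drives the doxycycline-dependent activator, chiefly in mammary epithelium, and the activator switches on an activated Neu oncogene. Control mice were littermates that carried TetO-NeuNT only, without the activator. From an age of 8 weeks the water of both groups held doxycycline (2 mg/mL) sweetened with 5% sucrose, so the controls shared the drug, the sugar and 1 of the transgenes. Tissue was snap-frozen when the tumor was about 1 cm across, and the control was taken at the same time as its tumor-bearing match. The ages at that point are not in the labels used here. Total RNA was hybridised to Affymetrix mouse whole-genome arrays, and levels below are log2 of the deposited intensity, so that a difference of 1 is a doubling.

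The thymus is the organ in which T cells form. Precursors from the bone marrow enter it, rearrange their receptor genes with the Rag recombinase, pass through a stage that carries both Cd4 and Cd8, and are selected by cortical and medullary epithelium. Neutrophils, short-lived granulocytes made in the bone marrow, are scarce in a healthy thymus, and their granule proteins are the classic sign of expanded myelopoiesis in tumor-bearing mice. The thymus lies in the mediastinum on the heart, beside lung, fat, oesophagus and muscle, any of which can come along when it is dissected.

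The arrays were first checked against their label. Double-positive thymocyte markers had a median level of 12.25 in control and 12.15 in tumor-bearing mice (mean of 7 measured genes). Cortical epithelium markers stood at 11.21 and 11.05. Against the median thymus array, 7 arrays, 4 control and 3 tumor-bearing, correlated under 0.95 (Pearson r over all probe sets, log2), while the median array reached 0.991. The array nearest above the limit had r = 0.95 and the nearest below had 0.945. Of these 7 arrays, 2 went against their thymus label. The library labelled control 11 correlated at 0.896 with the median thymus array and at 0.931 with the median breast array. Its Rag1 level was 6.91 against a median of 13.45 over the 50 arrays. Hsd3b1 and Cyp17a1, genes of steroid hormone synthesis, were at 14.22 against 4.93 and 12.07 against 4.88. The library labelled control 20 correlated at 0.933 with thymus and at 0.987 with the median spleen array. Its Rag1 level was 4.91, its Ms4a1 (the B cell protein CD20) was 13.08 against a median of 9.34, and its S100a9 was 14.47. Its Klf1 (a red cell transcription factor) was 13.31 against 5.50, and its Cpb1 (a pancreatic enzyme) was 12.98 against 4.72. The series has no ovary or pancreas arrays, so these correlations cannot point to either tissue. The library labelled control 2 had the lowest correlation, 0.727, with high Sftpc, the lung surfactant protein C, at 13.65 against a median of 5.80. Results are therefore given over all 25 pairs and over the 18 pairs left without those 7 arrays. Where a sentence gives a pair of changes or medians for one gene or list, the first is over 25 pairs and the second over 18.

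**Figure D1:**
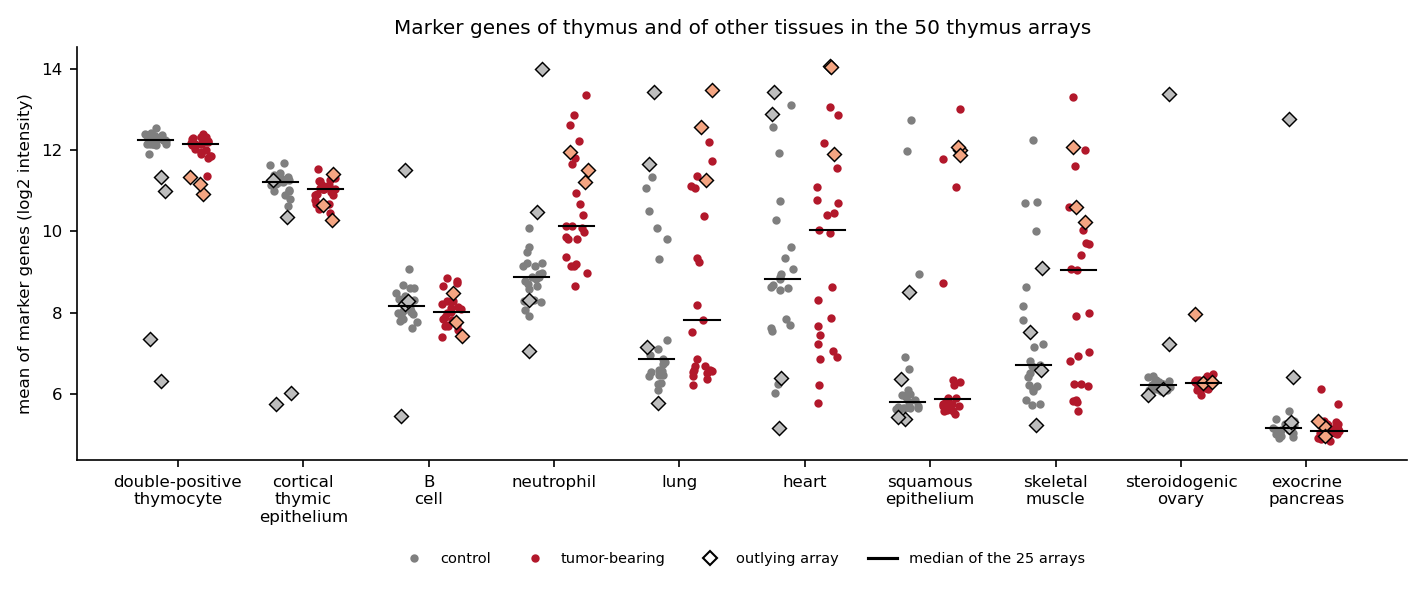
Mean level of marker genes (log2 intensity, vertical axis) of thymus cells and of other tissues, 1 point per thymus array for control and tumor-bearing mice. Thymocyte markers lay close together in all but 2 control arrays, whereas lung, heart, squamous and skeletal muscle markers spread widely in both groups.

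Marker genes of tissues around the thymus were unevenly spread. Muscle markers (Acta1, Ckm, Myh4 and Tnnt3) exceeded the median of all arrays by more than 2 in 4 of 25 control and 11 of 25 tumor-bearing arrays, and their median was 6.69 in controls and 9.05 in tumor-bearing mice. Lung markers did so in 8 and 11 arrays, and squamous epithelium markers in 4 and 7. Heart markers did so in 5 control and 8 tumor-bearing arrays. These 3 sets (lung, heart, squamous) were chosen after the values had been seen. As a measure of RNA quality, the Gapdh 3′ to 5′ signal ratio (log2) was 0.152 ± 0.771 in tumor-bearing and 0.123 ± 0.738 in control mice (SD, n = 25 each; sign-flip permutation test over pairs, two-sided p = 0.897). That test compares group means and does not speak to single arrays. The ratio exceeded 1 in 3 control and 4 tumor-bearing arrays, which belong to pairs 8, 9, 10, 12, 17, 21 and 22. Of these, pairs 9, 10, 17 and 22 remained among the 18 pairs.

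Few thymus genes passed the test, and all of them were higher in tumor-bearing mice. Over 25 pairs, 2 of 18193 genes rose and 0 fell (limma with the pair as a block, Benjamini-Hochberg adjusted p under 0.05). These were S100a8 and S100a9, whose proteins form calprotectin, the main cytosolic protein of neutrophils. They make up 0.011% of genes tested. At an unadjusted p under 0.05, 553 genes (3.04%) were higher and 204 (1.12%) lower. Over 18 pairs, 8 genes rose (0.044%) and 0 fell, and at an unadjusted p under 0.05 there were 831 higher (4.57%) and 299 lower (1.64%). The 8 genes were S100a8, S100a9, Ngp and Lcn2 of neutrophil granules and cytosol, Slc4a1 and Alas2 of red cells, Selp of platelets and endothelium, and the immunoglobulin light chain variable segment Igkv6-14. Without the 2 pairs of the libraries labelled control 11 and 20 alone, 18 genes rose (0.0989%) and 0 fell. Leaving out 1 pair at a time gave between 0 and 21 genes higher: 0 without pair 2, 8 or 25, and 21 without pair 20.

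The promoters of 4 genes are shown because these are the neutrophil genes that rose over 18 pairs. Each is the stretch of 250 bases before the gene's start in RefSeq on GRCm38.p6, written 5′ to 3′ on the gene's strand. Capitals mark TTNNGNAA, a loose form of the site that C/EBP factors of the granulocyte lineage bind, found on either strand.
S100a8 (chr3:90668821-90669070, plus strand): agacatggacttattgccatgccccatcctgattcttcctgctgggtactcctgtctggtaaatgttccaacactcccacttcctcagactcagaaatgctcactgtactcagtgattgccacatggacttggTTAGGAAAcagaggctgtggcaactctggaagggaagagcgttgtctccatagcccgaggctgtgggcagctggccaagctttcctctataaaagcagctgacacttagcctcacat
S100a9 (chr3:90695722-90695971, minus strand): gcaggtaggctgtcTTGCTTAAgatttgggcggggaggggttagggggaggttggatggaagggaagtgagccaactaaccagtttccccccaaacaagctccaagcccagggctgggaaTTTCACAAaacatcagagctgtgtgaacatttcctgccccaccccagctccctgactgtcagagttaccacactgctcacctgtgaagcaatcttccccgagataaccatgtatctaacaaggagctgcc
Ngp (chr9:110419558-110419807, plus strand): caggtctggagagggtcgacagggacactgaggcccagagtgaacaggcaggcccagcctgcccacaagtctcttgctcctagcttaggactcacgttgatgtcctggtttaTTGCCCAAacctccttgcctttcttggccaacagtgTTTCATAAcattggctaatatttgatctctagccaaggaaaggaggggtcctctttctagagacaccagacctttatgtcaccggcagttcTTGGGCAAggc
Lcn2 (chr2:32387740-32387989, minus strand): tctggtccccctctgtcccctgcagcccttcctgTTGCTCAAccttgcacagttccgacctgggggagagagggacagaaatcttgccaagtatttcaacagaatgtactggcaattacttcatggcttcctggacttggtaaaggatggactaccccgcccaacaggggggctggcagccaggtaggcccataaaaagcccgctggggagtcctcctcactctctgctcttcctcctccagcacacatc
S100a8 and S100a9 lie close together on chromosome 3. The motif occurred 1 time in the S100a8 window, 2 times in S100a9, 3 times in Ngp and 1 time in Lcn2. It also occurred in 36.8% of 32851 promoter windows of this length. TATAAA, searched on both strands, was present in the S100a8 window and in 12.4% of all windows, and it was not found in the other 3. A match is a description of the letters and does not show a bound site.

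S100a8 had levels of 5.63 to 14.21 in control mice, with a median of 10.19. In tumor-bearing mice they ran from 10.05 to 13.93 with a median of 11.88. The groups overlapped over all 25 pairs, and the lowest and highest control values belonged to the libraries labelled control 11 and control 20. The rise was 1.88 ± 0.31 (SE, log2), or 3.67-fold, with an adjusted p of 0.0191, and 23 of 25 pairs were higher in the tumor-bearing mouse. Among the 18 pairs, controls lay between 9.11 and 11.06 and tumor-bearing mice between 10.55 and 13.93, so only a narrow band was shared. There the rise was 2.00 ± 0.24 (4.01-fold, adjusted p = 3.93e-04), with 18 of 18 pairs higher.

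S100a9, the partner of S100a8 in calprotectin, ran from 5.51 through a median of 9.64 to 14.47 in controls. Tumor-bearing values were 9.55, 11.59 and 14.20 in the same order. Its rise of 2.21 ± 0.37 (4.62-fold, adjusted p = 0.0191) was seen in 22 of 25 pairs. Over 18 pairs it was 2.35 ± 0.28 (5.10-fold, adjusted p = 3.93e-04), with 17 pairs higher. As in S100a8, the tumor-bearing median exceeded the control median by more than 1 while single arrays of the groups overlapped.

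**Figure D2:**
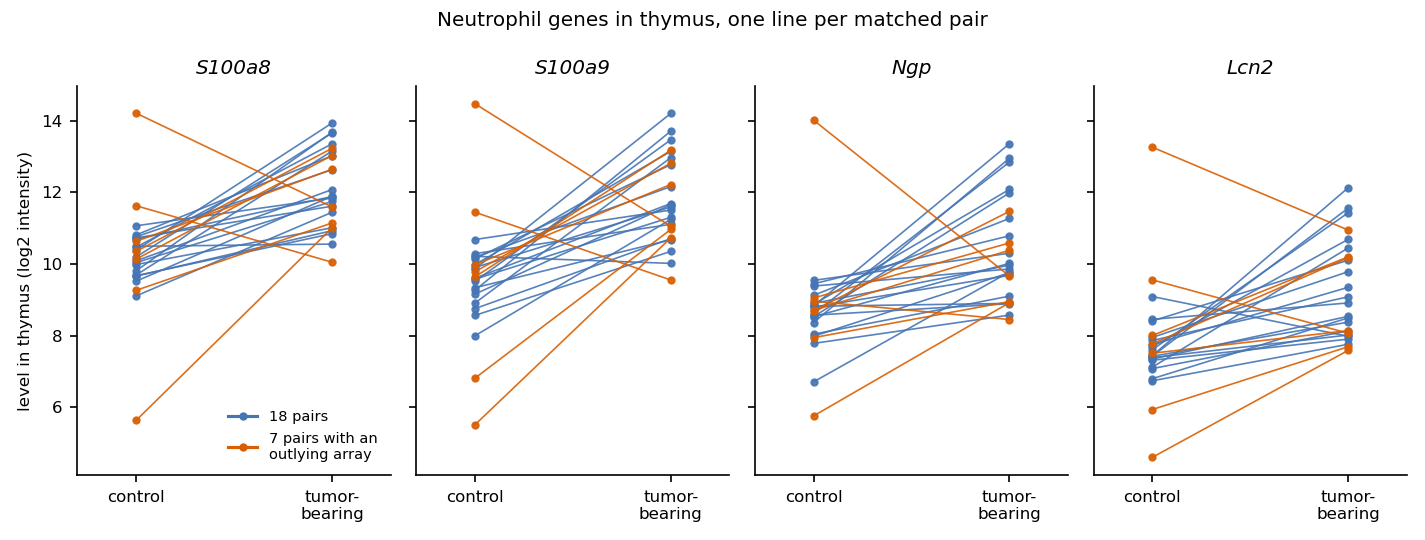
Level of neutrophil genes in thymus (log2 intensity), with each line joining the control and the tumor-bearing mouse of 1 matched pair. Lines of the 18 pairs mostly climb. Those of the 7 pairs with an outlying array include the steepest falls. They also hold the steepest rises of S100a8 and S100a9 (5.37 and 5.22, both in pair 11).

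Of the secondary granule genes, Ngp and Lcn2 did not pass the test over 25 pairs and rose over 18. Ngp, the neutrophilic granule protein, had control levels of 5.76, 8.70 and 14.01 (lowest, median, highest) and tumor-bearing levels of 8.45, 9.97 and 13.35. The tumor-bearing median was above the control median, although the single highest array was the library labelled control 20. Its change was 1.62 ± 0.35 over 25 pairs (adjusted p = 0.255) and 1.96 ± 0.32 over 18 (adjusted p = 0.0311, 18 of 18 pairs higher). Lcn2, the iron-siderophore binding lipocalin 2, ran from 4.60 to 13.26 in controls (median 7.51) and from 7.59 to 12.13 in tumor-bearing mice (median 8.91), again with overlap. Its change was 1.52 ± 0.31 over 25 pairs (adjusted p = 0.153) and 1.77 ± 0.32 over 18 (adjusted p = 0.0416, 17 pairs higher). Camp, the antimicrobial cathelicidin, differed by 1.37 ± 0.39 over 25 pairs and 1.77 ± 0.34 over 18 (adjusted p = 0.797 and 0.0603) and Ltf, the iron-binding lactoferrin, by 0.88 ± 0.54 and 1.53 ± 0.52 (adjusted p = 0.995 and 0.568). Neither passed the test. Stfa2l1, a cystatin-like protease inhibitor of the stefin A family found in mouse neutrophils, was higher in all 18 pairs without passing it, at 0.99 ± 0.32 and 1.19 ± 0.23 (adjusted p = 0.905 and 0.0603).

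Primary granule genes, which are made at the promyelocyte stage in bone marrow and not in mature neutrophils, were higher in most tumor-bearing mice but did not pass the test. Mpo, the myeloperoxidase, was at 5.37, 6.46 and 13.72 in controls and at 5.99, 7.07 and 11.71 in tumor-bearing mice. Its change was 0.99 ± 0.43 over 25 pairs (adjusted p = 0.995) and 1.61 ± 0.39 over 18 (adjusted p = 0.183, 15 pairs higher). The serine proteases Prtn3, Ctsg and Elane differed by 0.80, 0.62 and 0.51 over 25 pairs (adjusted p = 0.995 for each) and by 1.40, 1.16 and 0.97 over 18, with adjusted p-values of 0.132, 0.245 and 0.245. Csf3r, the receptor for granulocyte colony-stimulating factor, differed by 0.94 ± 0.29 and 1.01 ± 0.21 (adjusted p = 0.844 and 0.0869), and Cxcr2, the receptor that draws neutrophils to chemokines, by 0.37 ± 0.20 and 0.56 ± 0.14 (adjusted p = 0.995 and 0.219). Padi4, the enzyme that citrullinates histones in neutrophil nuclei, was the exception in sign, at -0.11 ± 0.11 and -0.0599 ± 0.0942.

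Of the 22 neutrophil genes listed, 19 were measured. Over 25 pairs 2 of the 19 passed the test, the median change was 0.82, and 10 were higher at an unadjusted p under 0.05 with 0 lower, against 3.04% and 1.12% of all genes. Over 18 pairs 4 passed, the median was 1.16, and 18 of 19 were higher at an unadjusted p under 0.05, against 4.57% of all genes. Over the 23 pairs without the libraries labelled control 11 and 20, 7 passed: S100a8, S100a9, Ngp, Lcn2, Camp, Csf3r and Chil3. The median change of all genes was 0.00404 over 18 pairs. In whole tissue, more cells of a type and more RNA per cell cannot be told apart, for this list or any other. All 5 measured neutrophil markers were above the intensity floor of 11.3 in every thymus array. So were nearly all other probe sets, with at most 0.00443% at the floor in any thymus array, so this does not show detection.

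**Figure D3:**
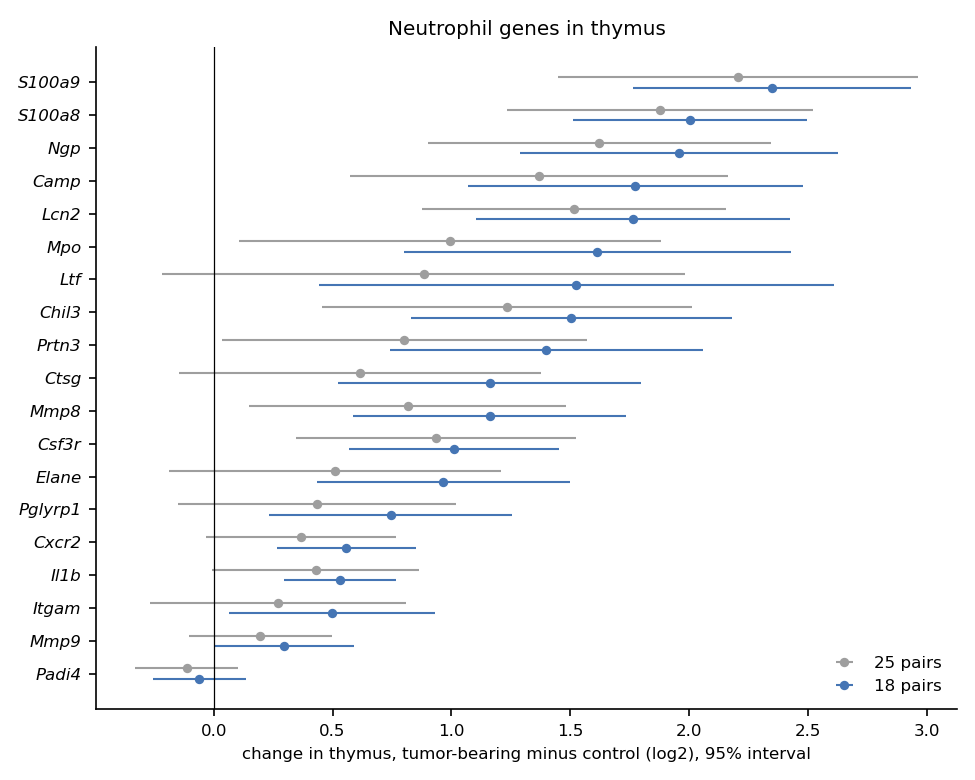
Change of each measured neutrophil gene in thymus (tumor-bearing minus control, log2) with its 95% interval, over 25 pairs (grey) and 18 pairs (blue). S100a9 and S100a8 lie farthest to the right, the intervals of 18 genes are above 0 over 18 pairs, and the interval of Padi4 spans 0.

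Muscle and lung markers were also unevenly spread beside this result. Skeletal muscle markers were higher in 11 of the 18 tumor-bearing mice, and with their level as a covariate 2 genes passed the test over 18 pairs (0.011%), S100a8 at 1.78 and S100a9 at 2.15 (limma adjusted p = 0.0131 for both). With lung markers as the covariate over 18 pairs, 16 genes rose (0.0879%) and 0 fell. In the 9 pairs free of both outlying arrays and lung marker signal no gene passed the test (limma; 420 genes, 2.31%, higher and 529, 2.91%, lower at an unadjusted p under 0.05). There S100a8 was 1.88 ± 0.28 and S100a9 2.20 ± 0.32 (limma adjusted p = 0.0627 and 0.0622), higher in 9 and 9 of the 9 pairs, and 15 of the 19 neutrophil genes were higher at an unadjusted p under 0.05, against that 2.31%. The sample numbers in the labels fall into an earlier and a later series. Of the 18 pairs, 5 belong to the earlier and 13 to the later one, and the list median was 0.41 and 1.47 there. S100a8 was 1.01 ± 0.23 in the earlier and 2.39 ± 0.25 in the later pairs, and that difference was not tested over the 18 pairs. Over all 25 pairs 0 genes differed between the series (limma adjusted p under 0.05, with 957 at an unadjusted p under 0.05). The earlier series there holds the libraries labelled control 11 and 20, so that test does not settle the question for the 18 pairs.

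The red cell genes Alas2 and Slc4a1 and the P-selectin gene Selp rose over 18 pairs, while most genes of the erythroid and platelet lists did not pass the test. Alas2, the first enzyme of heme synthesis in red cell precursors, was at 7.52, 9.12 and 13.69 in controls and at 9.24, 10.53 and 12.40 in tumor-bearing mice, with the control maximum again in the library labelled control 20. It did not pass the test over 25 pairs (1.26 ± 0.33, adjusted p = 0.727) and rose by 1.50 ± 0.27 over 18 (adjusted p = 0.0416, 16 of 18 pairs). Slc4a1, the anion exchanger band 3 of the red cell membrane, was at 5.24, 5.996 and 13.18 in controls and at 5.99, 7.45 and 10.21 in tumor-bearing mice, with wide overlap. Its change over 25 pairs was 1.39 ± 0.40 (adjusted p = 0.844; 0.72 with the mean of its probe sets), and it rose by 1.69 ± 0.29 over 18 (adjusted p = 0.0416, 17 pairs higher). Of the 11 erythroid genes measured, 3 and 6 were higher at an unadjusted p under 0.05, against 3.04% and 4.57% of all genes, and the list medians were -0.0164 and 0.20. Klf1, the factor of red cell precursors, was -0.05 ± 0.32 and 0.29 ± 0.15 (adjusted p = 0.998 and 0.812). Selp, the P-selectin that platelets and endothelium expose to catch leukocytes, had control levels of 6.83, 7.66 and 9.84 and tumor-bearing levels of 7.43, 8.10 and 9.59. The groups overlapped. Its change over 25 pairs was 0.49 ± 0.15 (adjusted p = 0.844; 0.33 with the mean of its probe sets), and it rose by 0.61 ± 0.11 over 18 (adjusted p = 0.0416, 17 pairs higher). Of 11 platelet genes 2 and 6 were higher by the same threshold, against the same shares of all genes (medians 0.0497 and 0.28) and none passed the adjusted test. Whether blood held in the tissue took part in these differences was not tested.

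The next genes described were those of immunoglobulins and plasma cells. Igkv6-14 ran from 5.70 to 10.43 in controls (median 8.24) and from 7.82 to 12.06 in tumor-bearing mice (median 9.25). The groups overlapped, with the highest values in tumor-bearing mice. The change was 1.47 ± 0.28 over 25 pairs (adjusted p = 0.0801) and 1.64 ± 0.29 over 18 (adjusted p = 0.0416, 16 pairs higher). Light chain variable segments are near copies of one another, so the probe set may read related segments as well. Plasma cell genes followed in sign without passing the test: 2 and 7 of 11 were higher at an unadjusted p under 0.05, against 3.04% and 4.57% of all genes (medians 0.18 and 0.28), among them Jchain, which joins IgA and IgM into polymers, at 0.46 ± 0.16 and 0.40 ± 0.092 (adjusted p = 0.995 and 0.146). Mzb1, a chaperone of antibody secretion, was at 0.32 ± 0.20 and 0.46 ± 0.15 (adjusted p = 0.995 and 0.505). Over the 9 pairs without lung signal 0 of the 11 passed that unadjusted threshold. The B cell list lay the other way, at medians of -0.061 and -0.0864, with 0 and 2 of 14 lower at an unadjusted p under 0.05, against 1.12% and 1.64% of all genes. Its sign depended on the series of sample numbers. Within the 18 pairs its median was -0.59 in the 5 earlier pairs, with 9 lower by that threshold against 5.68% of all genes. In the 13 later pairs it was 0.094, with 1 higher and 0 lower, against 7.27% and 2.44% of all genes.

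Thymocyte genes did not pass the test in either direction. Rag1 ran from 4.91 through 13.48 to 13.95 in controls and from 11.90 through 13.41 to 13.84 in tumor-bearing mice, and the low controls were the libraries labelled control 11 and 20. Its change was 0.46 ± 0.41 over 25 pairs and -0.12 ± 0.0936 over 18 (adjusted p = 0.995 and 0.874). Cd8a, a co-receptor of the double-positive stage, likewise went from 0.17 ± 0.31 to -0.18 ± 0.0821 (adjusted p = 0.995 and 0.787). The sign of both differences turned once the arrays that stood apart were left out. The list of recombination and double-positive genes, 14 measured, had a median of 0.18 over 25 pairs, -0.12 over 18 and -0.0165 over the 9, with 0, 3 and 0 members lower at an unadjusted p under 0.05, against 1.12%, 1.64% and 2.91% of all genes. For the 18 genes of the T cell receptor and its signalling the medians were 0.10, -0.11 and 0.00935, and 4 were lower over 18 pairs by the same threshold.

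Dividing thymocytes are the main source of cell cycle transcripts in this organ. The mitosis list (22 measured) had a median of -0.14 over 25 pairs and -0.18 over 18, with 1 and 6 lower and 0 higher at an unadjusted p under 0.05, against 1.12% and 1.64% of all genes lower. Aurka, a spindle pole kinase, was -0.31 ± 0.14 and -0.24 ± 0.10 (adjusted p = 0.995 and 0.775). Top2a, the topoisomerase of chromosome condensation, was -0.11 ± 0.15 and -0.19 ± 0.0911 (adjusted p = 0.995 and 0.801). Over the 9 pairs the mitosis median was -0.0152 with 0 genes past that threshold. DNA replication genes lay at -0.13 and -0.16, with 0 and 1 of 24 lower by that threshold.

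Thymic epithelium showed no gene past the test. Foxn1, the factor that makes thymic epithelium, was 0.0098 ± 0.23 over 25 pairs and -0.0478 ± 0.14 over 18. Psmb11, the thymoproteasome subunit of the cortex, was 0.22 ± 0.28 and -0.17 ± 0.10. Aire, which turns on tissue antigens in the medulla, was 0.15 ± 0.20 and -0.00104 ± 0.0806. Over 18 pairs the 95% intervals were -0.34 to 0.25 for Foxn1, -0.39 to 0.042 for Psmb11 and -0.17 to 0.17 for Aire, so the data bound any change of Aire more closely than that of Foxn1. Trp63, the p53 relative of epithelial progenitors, and Epcam, an epithelial adhesion protein, were at 0.59 and 0.33 over 25 pairs (adjusted p = 0.995 for both) and at 0.26 and 0.22 over 18 (adjusted p = 0.38 and 0.474). The medians of the cortical and medullary lists, 15 measured genes each, were 0.24 and 0.15 over 25 pairs and -0.028 and 0.0474 over 18.

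**Figure D4:**
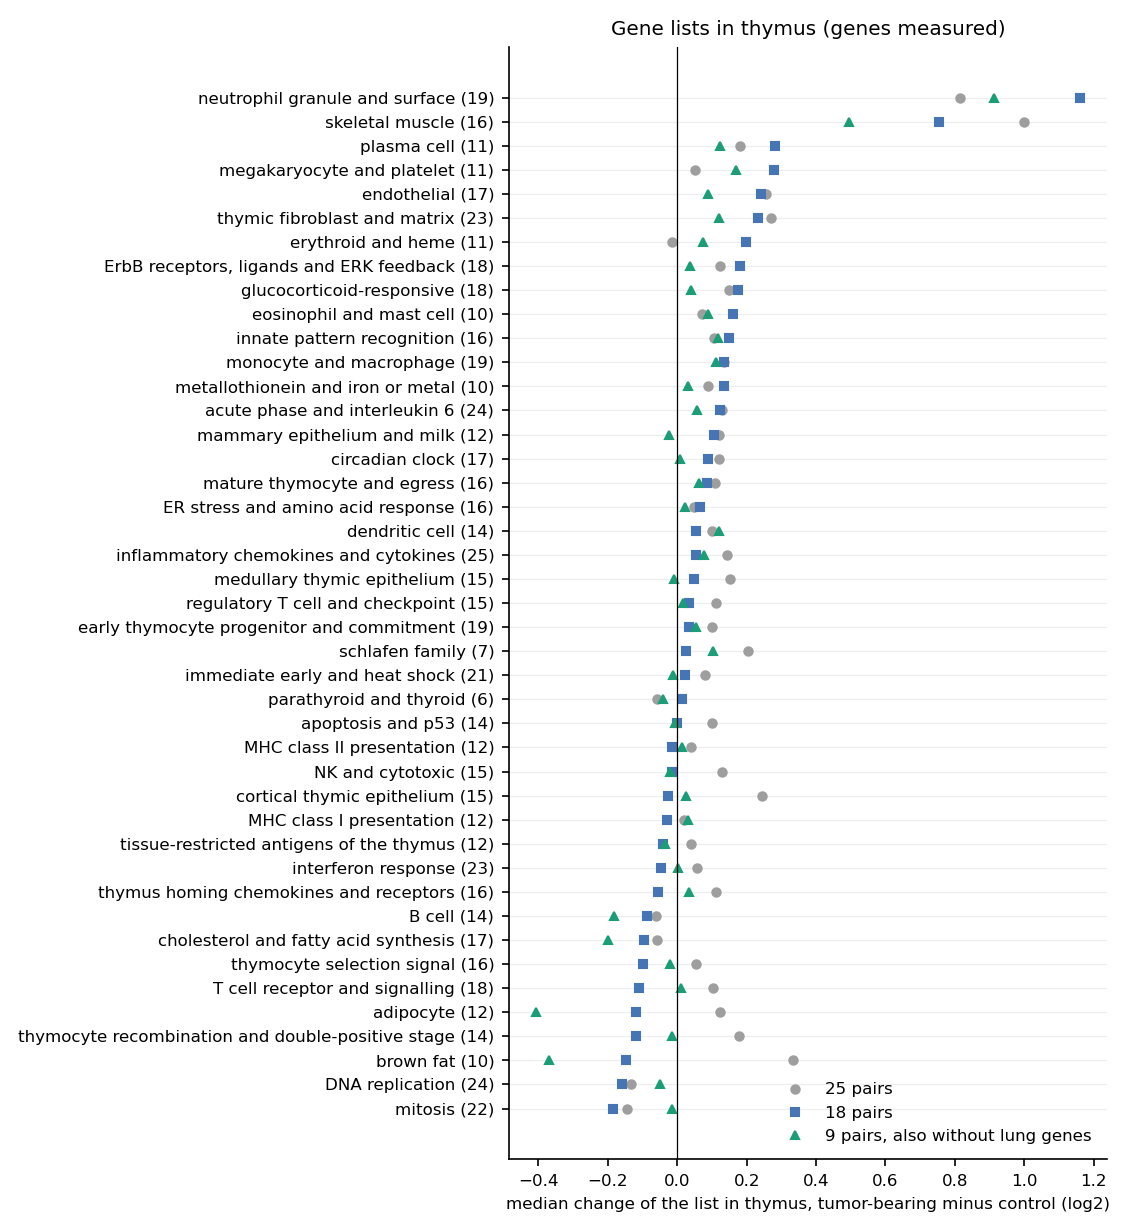
Median change of gene lists in thymus (tumor-bearing minus control, log2), with the number of genes measured in brackets, over different sets of pairs. Neutrophil genes lie farthest from 0 over 18 pairs at 1.16, skeletal muscle follows at 0.75, and thymocyte and fat lists change sign between the sets of pairs.

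Among the stromal, macrophage, chemokine, acute phase and interferon lists, no gene passed the test over 25 pairs, and over 18 pairs Selp alone did. Among macrophage genes (19 measured) the medians were 0.13 and 0.14, with 4 and 6 higher at an unadjusted p under 0.05, against 3.04% and 4.57% of all genes. Adgre1, a macrophage surface receptor, was 0.24 ± 0.10 and 0.29 ± 0.0817 (adjusted p = 0.995 and 0.325), and C1qa, a complement component made by macrophages, -0.0551 ± 0.14 over 18 pairs. Lrg1, an acute phase glycoprotein also held in neutrophil granules, was at 7.54, 8.85 and 12.46 in controls and 8.28, 9.92 and 11.60 in tumor-bearing mice, with overlap. Its difference passed the test over the 23 pairs without the libraries labelled control 11 and 20, but missed the threshold at 0.98 ± 0.25 over 25 pairs and 1.11 ± 0.22 over 18 (adjusted p = 0.715 and 0.0671, 15 of 18 pairs higher). Ccl8, a monocyte-attracting chemokine, was 0.73 ± 0.21 and 0.65 ± 0.14 (adjusted p = 0.844 and 0.126). Siglech, a receptor of plasmacytoid dendritic cells, was 0.50 ± 0.15 and 0.49 ± 0.10 (adjusted p = 0.844 and 0.0911). Rsad2, the interferon-induced antiviral enzyme viperin, was 0.69 ± 0.29 and 0.92 ± 0.21 (adjusted p = 0.995 and 0.126). The interferon list had medians of 0.0556 and -0.0463, and over 18 pairs 1 of 23 genes was higher and 2 lower at an unadjusted p under 0.05, against 4.57% and 1.64% of all genes.

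Fibroblast and endothelial lists depended on which pairs were used. The fibroblast and matrix list (23 measured) had medians of 0.27 and 0.23. Within the 18 pairs it was -0.38 in the 5 earlier and 0.40 in the 13 later pairs. In the earlier pairs 10 genes were lower and 0 higher at an unadjusted p under 0.05, against 5.68% of all genes lower and 2.33% higher, and in the later pairs 16 were higher and 0 lower, against 7.27% of all genes higher and 2.44% lower. In the same order, the endothelial medians were -0.13 and 0.39, and the macrophage medians -0.19 and 0.28. Glucocorticoid-responsive genes, the usual sign of stress in a thymus, had medians of 0.15 and 0.17, with 2 and 4 of 18 genes higher at an unadjusted p under 0.05, against 3.04% and 4.57% of all genes. Among them Tsc22d3, the glucocorticoid-induced leucine zipper, was 0.16 ± 0.12 and 0.32 ± 0.12, and Fkbp5, a chaperone of the receptor, -0.00895 ± 0.12 and -0.0244 ± 0.0741. Neither passed the test (adjusted p over 18 pairs = 0.686 and 0.985). Erbb2, the mouse gene that corresponds to the rat-derived Neu oncogene, ran from 5.74 to 8.54 in controls and from 6.20 to 9.03 in tumor-bearing mice, with almost full overlap. The difference was 0.11 ± 0.16 with 13 of 25 pairs higher (adjusted p = 0.995), and 0.22 ± 0.14 over 18 pairs (adjusted p = 0.857). Whether its probe set also reads the transgene was not tested.

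Muscle and fat genes varied most among the remaining lists. Acta1, the skeletal muscle actin, was at 5.89, 7.90 and 13.65 in controls and 6.39, 10.92 and 14.22 in tumor-bearing mice. Its change was 1.46 ± 0.52 and 1.66 ± 0.58 (adjusted p = 0.995 and 0.581), and both groups covered nearly the whole range. Of 16 muscle genes, 12 were higher at an unadjusted p under 0.05 over 25 pairs, 6 over 18 and 0 over the 9, against 3.04%, 4.57% and 2.31% of all genes, and the medians were 1.00, 0.75 and 0.49. Ucp1, the uncoupling protein that makes brown fat produce heat, had a median level of 12.59 in controls and 12.41 in tumor-bearing mice. Elovl3, a fatty acid elongase of brown fat, was -0.28 ± 0.30 over 25 pairs and -0.83 ± 0.22 over 18 (adjusted p = 0.995 and 0.245), lower in 14 of the 18. Brown fat genes (10 measured) had medians of 0.33, -0.15 and -0.37 over 25, 18 and 9 pairs, and 5 of 12 adipocyte genes were lower at an unadjusted p under 0.05 over the 9, against 2.91% of all genes.

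Spleen and blood cells of the same series were used to ask where the thymus response differed. The change in thymus was more positive than that in spleen for 1463 genes (8.04%) and less positive for 2111 (11.6%), and against blood for 265 (1.46%) and 901 (4.95%), by a limma test of the difference itself over 25 pairs in each tissue. The test treated pairs of different tissues as separate, since whether they came from the same mice was not settled. Blood arrays had median intensities of 19.7 to 31.9, with at least 6.14% of probe sets at the floor. Thymus medians were 117 to 141, with at most 0.00443% at the floor. Without the floor, 1167 genes differed from blood in place of 1166. Whether the lower intensities of blood altered the size of its changes relative to thymus was not tested. Averaged over the 15 sets of sample numbers that the tissues share, 3539 genes differed from spleen and 592 from blood. In spleen alone 4081 genes rose (22.4%) and 3327 fell (18.3%), and in blood 1575 rose (8.66%) and 776 fell (4.27%). The neutrophil list had a median change of 2.47 in spleen and 2.77 in blood, and 13 of 19 genes were less positive in thymus than in spleen and 11 less positive than in blood. Spleen and blood each held arrays that stood apart. Without those and the 7 thymus arrays, 12 of 19 were less and 2 more positive than in spleen, against 16.9% and 15.7% of all genes, and 10 less and 4 more positive than in blood, against 6.56% and 4.89%.

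The order of tissues depended on the gene. For S100a8 the change was 1.88 in thymus, 1.20 in spleen and 2.95 in blood. The thymus exceeded spleen by 0.68 (95% interval -0.0398 to 1.40, adjusted p = 0.196), and without outlying arrays by 0.92 (adjusted p = 0.00213). S100a9 gave 2.21, 1.33 and 3.05 in the same order. Ngp changed by 1.74 in spleen and 4.89 in blood, and the thymus minus blood difference was -3.27 (adjusted p = 1.76e-06). For Lcn2 that difference was -3.31 (adjusted p = 2.34e-06).

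Primary granule genes showed another order of tissues. Mpo changed by 0.99 in thymus, 2.80 in spleen and 0.0633 in blood, Prtn3 by 0.80, 3.27 and 0.12, and Elane by 0.51, 2.86 and -0.0557. For Mpo the thymus minus blood difference was 0.93 over all pairs (adjusted p = 0.255) and 1.52 without outlying arrays (adjusted p = 0.00539). In blood the primary granule genes had changes near 0 and the secondary granule genes the largest ones. The part of the lower blood intensities in these sizes was not tested. The thymus values of Mpo, Prtn3 and Elane lay between those of blood and spleen. Alas2 was more positive in thymus than in blood by 1.15 (adjusted p = 0.0349; 0.0541 when averaged over the 15 sets of sample numbers that the tissues share). Igkv6-14 was more positive than in spleen by 1.45 and than in blood by 1.88 (adjusted p = 0.00744 and 4.69e-05).

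**Figure D5:**
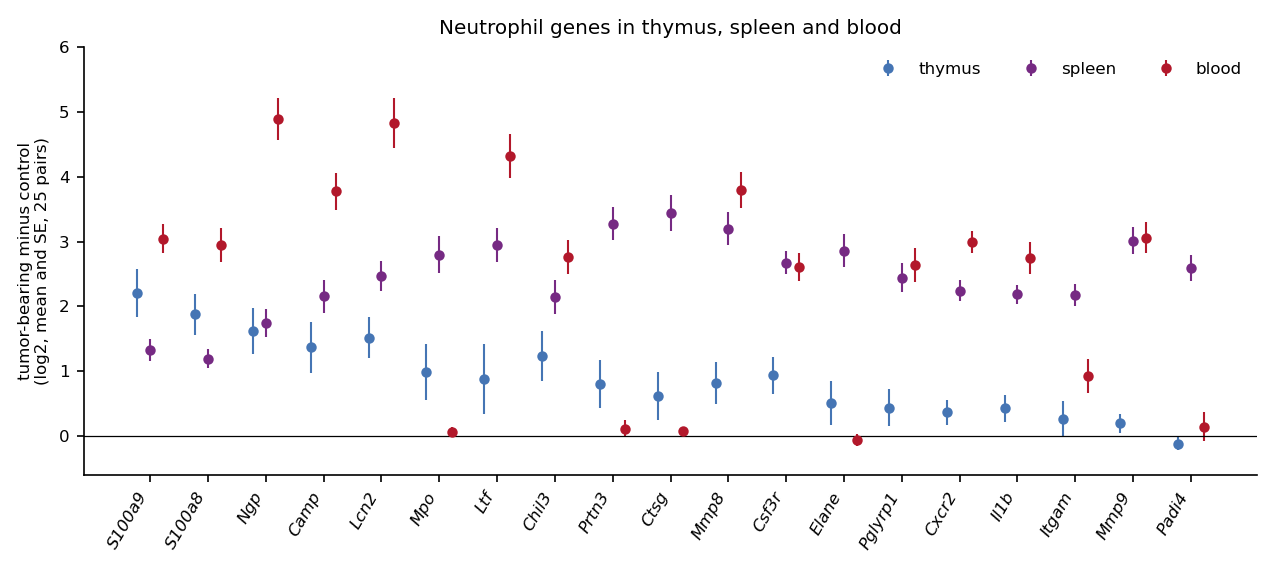
Change of neutrophil genes (tumor-bearing minus control, log2, mean and SE over 25 pairs) in thymus, spleen and blood. S100a8 and S100a9 changed in all 3 tissues, Mpo, Elane, Prtn3 and Ctsg stand high in spleen and near 0 in blood, and thymus lies below at least 1 of the other tissues for each gene.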

How the data were processed

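RNA of whole thymus was measured on 50 arrays, 25 per group. The authors deposited a table of linear intensity values for 45101 probe sets, summarised and scaled by a method not given in the sources used here. Thymus array medians were 117 to 134 in controls and 120 to 141 in tumor-bearing mice, and the number of arrays limits the precision. Values were floored at their 5th percentile (11.3) and converted to log2. Symbols were updated through RefSeq (GRCm38.p6): 34958 probe sets had 1 symbol, 932 several and 9211 none. Each of 18193 genes was represented by its probe set with the highest mean over 250 arrays. 64 control probe sets were left out.

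Changes were tested with limma 3.58.1 in R 4.3.3 (pair as a block, empirical Bayes, Benjamini-Hochberg over all genes, adjusted p under 0.05). Same-pair arrays deviated together in 16 of 25 pairs (correlation above 0.1, median 0.249) and in 10 of the 18 pairs (median 0.145). The pairing comes from the labels, where separate mice are named. Errors are SE of the change unless marked SD. The fit was tested on simulated data with 200 changed genes, drawn from genes above the median mean level. At 25 pairs it recovered 62% of changes of 0.5 and 96% of changes of 1 (log2), and at 18 pairs 72% and 98%. False calls were 6.77% and 5.61% of the calls. The simulated noise was independent and normal, without mislabelled libraries or shared neighbouring tissue, so these rates do not carry over to the thymus arrays. There, over 25 pairs, Ngp at 1.62 and Lcn2 at 1.52 did not pass the test, while S100a8 at 1.88 did.

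Members, gene lists (44, with 640 of 698 genes measured), markers and tests were chosen with earlier results of these data known. No set test was run. Genes named are Erbb2, all called genes, list members and markers with their values whether called or not, the 10 genes with the largest spread over pairs, and called genes whose change differs between tissues. Alternatives covered the floor, probe set choice, scaling, pairing, outlying or neighbouring-tissue arrays and each left-out pair.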

Additional observations from a re-analysis of the deposited data

Results flagged for a closer look

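The change in thymus differed from that in another tissue for 4 of the genes that passed the test over 18 pairs, by a limma test of the difference over 25 pairs in each tissue. Ngp and Lcn2 were less positive in thymus than in blood, by -3.27 ± 0.487 (adjusted p = 1.76e-06) and -3.31 ± 0.5 (SE, log2; adjusted p = 2.34e-06). Igkv6-14 was more positive in thymus, by 1.88 ± 0.331 against blood (adjusted p = 4.69e-05) and by 1.45 ± 0.409 against spleen (adjusted p = 0.00744). Alas2 was more positive in thymus than in blood by 1.15 ± 0.354 (adjusted p = 0.0349). Averaged over the 15 sets of sample numbers that the tissues share, that difference missed the threshold (adjusted p = 0.0541). Blood arrays had lower intensities than thymus arrays, and the effect of this on the differences from blood was not tested.

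Among 10092 probe sets with no gene name or several, tested apart from the named genes, 3 were higher in tumor-bearing thymus over 25 pairs, each with a limma adjusted p of 0.0461. Probe set 1436853_a_at rose by 1.86 ± 0.338, 1425470_at by 0.573 ± 0.107 and 1425471_x_at by 0.454 ± 0.0864 (SE, log2). Over 18 pairs 4 passed the test. The first rose by 2.05 (adjusted p = 0.00228), and 1418493_a_at, 1421811_at and 1427660_x_at rose by 1.72, 0.971 and 0.320 (adjusted p = 0.0197 each). The other two had an adjusted p of 0.178 there.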

How the results depend on the processing

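The count of genes that rose was 2 over all 25 pairs. It was 1 (S100a9) with probe sets ending in _x_at or _s_at left out, a setting that did not measure S100a8. It was 4 with dim genes left out, 85 with array weights (4 fell there), 8 without outlying arrays and 18 without pairs 11 and 20. With the later sample numbers alone it was 12, and with the earlier ones alone 0. It was also 0 with the pairs of another sample name prefix left out, with lung marker pairs left out, with lung markers as a covariate, and with pairs of a high Gapdh ratio left out. Without outlying arrays it was 16 with the lung covariate, 12 in the later and 0 in the earlier pairs, and 0 when lung marker pairs were also left out. Some of these alternatives hold fewer pairs; otherwise the cause was not tested. Chosen after seeing the data were array weights, leaving out pairs 11 and 20 or pairs with a high Gapdh ratio, the lung and muscle settings, and all settings that join a second choice to leaving out the outlying arrays. Leaving out 1 pair at a time gave 0 to 21 genes higher and 0 lower: 0 without pair 2, 8 or 25, and 21 without pair 20. With no replicate block, that is without the pairing, 2 genes rose and 0 fell. S100a8 and S100a9 kept their direction under every alternative that measured them. Both fell short of the threshold under 7 settings and also without pair 2, 8 or 25. Without outlying arrays the change differed from spleen in 5918 genes in place of 3574, and from blood in 2083 in place of 1166. Averaging over 15 sets of sample numbers gave 592 for blood. With no replicate block the counts were 2715 and 922.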

Other observations

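The genes whose change varied most between pairs were those of lung airway and heart. Scgb1a1, the secretoglobin of airway club cells, had the largest SD of the change over 25 pairs, at 4.1 (log2), followed by the atrial peptide gene Nppa at 4.05. Scgb3a1 and Scgb3a2, also secretoglobins of the airway, had SDs of 3.73 and 3.71, and the cardiac myosin gene Myh6 had 3.57. The other 5 of the 10 most variable genes, Myl2, Smpx, Myom2, Sln and Tnnc1, belong to striated muscle and ranged from 3.04 to 3.28. None of these 10 genes passed the test for a change in thymus over 25 pairs.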
